A study of Mus musculus with 8 samples.

Results

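Collagen chain genes were taken as every row of the expression table whose symbol reads Col, a type number, the letter a and a chain number. The rule found 43 of 23284 genes: 9 chains of the fibrillar types 1, 2, 3, 5 and 11, 6 chains of type 4, the collagen of basement membranes, and 28 chains of other types. RNA of mouse induced pluripotent stem cells (iPSCs), reprogrammed from embryonic fibroblasts and grown over feeder cells of a kind that no source used here states, was sequenced in 8 polyA libraries. The 4 wild-type libraries, labelled ColA1_miR203 (+/+); Rosa26rtTA (+/+), received a control siRNA (siControl), siRNA against Dnmt3a, siRNA against Dnmt3b, or both (the double siRNA), with 1 library each, 1 week after transfection. The 4 knock-in libraries, labelled ColA1_miR203 (KI/KI); Rosa26rtTA (KI/KI), carry the microRNA miR-203 under doxycycline (dox) control: clones 1 and 2 had dox for 5 days and 2 weeks without it, and clones 1 and 2 had vehicle (n = 2 per group). The transactivator rtTA is driven from Rosa26, a locus active in most cells. The label of the miR-203 allele names a collagen locus, and no source used here states where the construct lies relative to Col1a1.

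Collagens are trimers of chains that wind around each other through repeats of glycine and 2 further residues. Fibrillar collagens, made mainly by fibroblasts and other connective tissue cells, assemble into the fibres of the matrix, while type 4 chains form the sheet under epithelia and around early embryonic tissues, and the other types coat fibrils, anchor sheets, form beaded filaments or span the cell membrane. Type 1 and type 3 collagen are among the main secreted products of fibroblasts, the cells from which these iPSCs were derived.

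The summed level of the 43 genes was 202.1 to 275.5 FPKM (fragments scaled to transcript length and library size) in the 4 wild-type libraries, 352.8 and 421.2 in vehicle clones 1 and 2, and 1507 and 1555 in dox clones 1 and 2. The dox libraries therefore stood above the other 6, with no overlap. Collagen made up 0.303% and 0.319% of all FPKM in dox, 0.0703% and 0.0862% in vehicle and 0.0361% to 0.0537% in the wild-type libraries. The make-up differed as well. Fibrillar chains held 33.3% to 46.5% of the collagen sum in the wild-type libraries, 66.4% and 69.0% in vehicle and 79.2% and 78.8% in dox. Col18a1 alone, the chain from which the fragment endostatin is cut, held 31.7% to 45.6% in the wild-type libraries, 8.17% and 5.29% in vehicle and 2.24% and 2.25% in dox. Type 4 chains held 8.31% and 8.74% in dox, 14.5% and 15.005% in vehicle and 11.4% to 12.8% in the wild-type libraries.

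**Figure D1:**
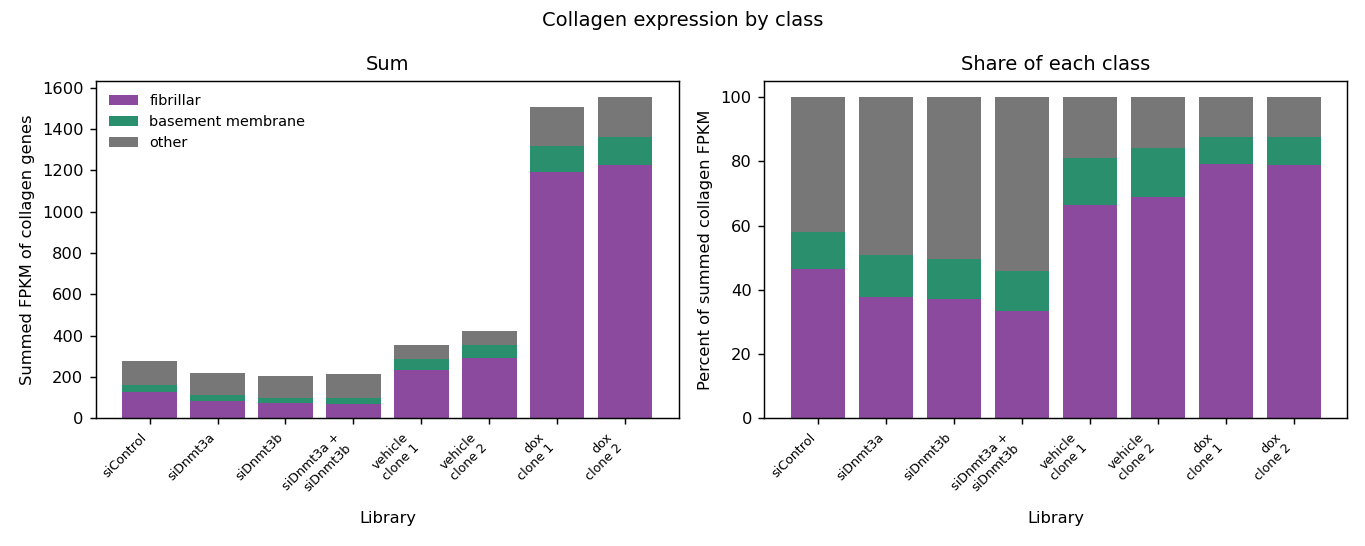
Left, the summed FPKM of the 43 collagen chain genes in each library, stacked by class; right, the percent of that sum held by each class. The 2 dox libraries reach 1507 and 1555, and the fibrillar share is lowest in the double siRNA library (33.3%) and highest in dox clone 1 (79.2%).

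Between the wild-type, vehicle and dox groups, these sums had the same order as a sum of fibroblast markers. A list of 16 fibroblast genes without any collagen summed to 242.4 to 292.7 FPKM in the wild-type libraries, 422.6 and 497.7 in vehicle and 970.1 and 1001 in dox. Among the members named with differences further below, the highest in siControl was Fbln2 at 21.6 FPKM. Members not named there thus held most of the wild-type sums, which do not describe the 16 genes evenly. None of the 16 was at 0 in every library, and Fap alone was under 1 FPKM in all 8. Bulk libraries do not show which cells made this RNA, and more cells cannot be told apart from more RNA per cell. The part of feeder cells in the collagen values was not tested. The 10 pluripotency genes summed to 2902 to 3697 FPKM in the wild-type libraries, 3827 and 3461 in vehicle and 4474 and 4362 in dox, and all 10 were at 1 FPKM or more in some library. A large part of these sums was Dppa5a, at 1164 and 1007 FPKM in vehicle and 1870 and 1978 in dox, so they do not describe the 10 genes evenly. For a transcript of 1 kilobase, 1 fragment was worth about 0.0414 to 0.0448 FPKM, and less in proportion for longer ones, read from the steps of low genes, so 1 FPKM of a collagen gene of median length stood for about 135 to 146 fragments in every library.

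The test of dox against vehicle was run with limma on log2(FPKM + 1), and the test took in 11927 genes whose mean in these 4 libraries was 1 FPKM or more. Of the 43 collagen genes, 20 passed that filter: 19 rose at an adjusted p under 0.05, none fell, and Col10a1 did not pass the test. Over all genes tested, 17.1% rose and 14.8% fell. The median difference of the 20 was 1.36 on the log2 scale, beside -0.01 for all genes tested. Col7a1 and Col28a1 passed the filter only through their dox values. With the minimum set on the vehicle libraries alone, a setting added after the data were seen, 17 of 18 collagen genes rose, against 15.4% of all genes. With no filter, all 43 were tested, and 20 rose and none fell, against 8.30% of all genes that rose. Without regard to any test, both dox libraries lay above both vehicle libraries for 30 of the 43 genes and below for 4. Of all 23284 genes in the table, 5748 (24.7%) lay above, and the share below was not counted. Only 18683 of the 23284 had any signal in these 4 libraries, as all 43 collagen genes had. The 24.7% is therefore low as a background for the 30, and the 4 have none. The fibroblast markers rose in the same comparison, 14 of 15 tested, and 12 rose with the minimum set on vehicle.

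**Figure D2:**
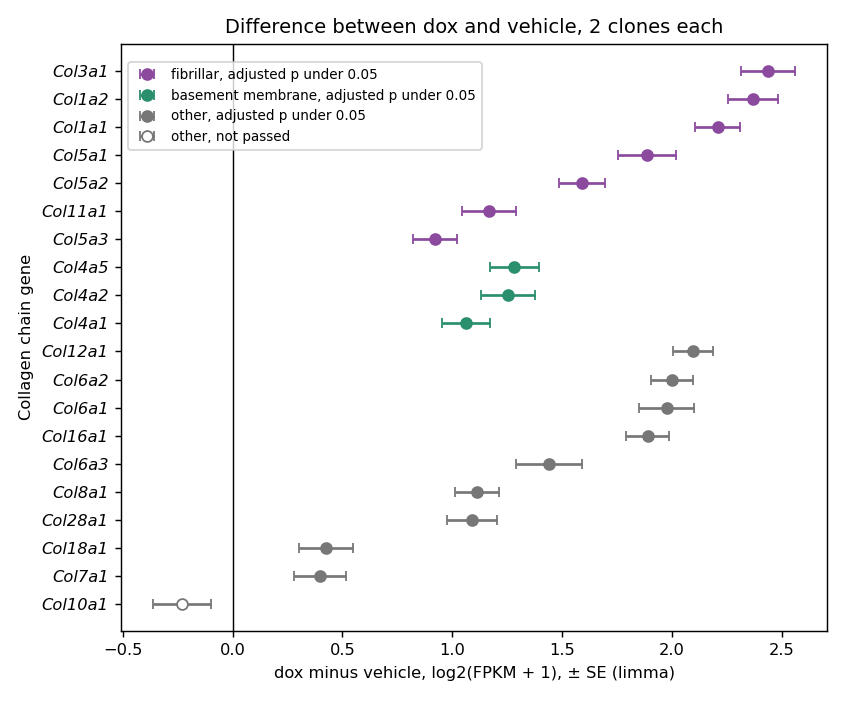
Difference between dox and vehicle on the log2(FPKM + 1) scale (x axis) for the 20 collagen genes with a mean of 1 FPKM or more in the knock-in libraries, with the SE from limma (n = 2 clones per group). Filled points passed at an adjusted p under 0.05, and Col10a1, at -0.23, is open.

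Among fibrillar chains, type 1 was the most abundant. Type 1 collagen, the main collagen of bone, skin and tendon, is built from 2 chains of Col1a1 and 1 of Col1a2. Col1a1 (chromosome 11, 94936224 to 94953042, plus strand of GRCm38) was at 98.3 and 119.8 FPKM in vehicle clones 1 and 2 and at 494 and 517 in dox clones 1 and 2. Both dox values lay above both vehicle values, and the log2 difference was 2.21 (SE 0.103, limma adjusted p = 1.42e-04). Col1a2 (chromosome 6, 4504814 to 4541544, plus strand) was at 59.6 and 75.1 in vehicle and 342.0 and 357.6 in dox, a rise of 2.37 (SE 0.113, limma adjusted p = 1.42e-04). In the wild-type libraries, Col1a1 lay between 18.2 and 36.1 FPKM and Col1a2 between 16.5 and 28.5, below both vehicle libraries.

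Type 3 collagen, which mixes with type 1 in skin and vessels, had the largest difference of the 20. Col3a1 (chromosome 1, 45311538 to 45349706, plus strand) was at 28.3 and 36.6 FPKM in vehicle and 184.1 and 173.8 in dox, and rose by 2.44 (SE 0.123, limma adjusted p = 1.66e-04). Its level in siControl, 30.3 FPKM, lay between the vehicle clones, unlike those of Col1a1 and Col1a2. The ratio of Col3a1 to Col1a1 was accordingly 0.696 to 0.851 in the wild-type libraries, 0.288 and 0.305 in vehicle and 0.373 and 0.336 in dox.

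Sequence around the starts of these genes was looked up because Col1a2 and Col3a1 rose together. The windows below run from 250 bases before to 50 after the RefSeq start (build GRCm38.p6), 5' to 3' on the gene's strand, with 3 short motifs in capitals wherever a match was found on either strand. The motifs were the CCAAT box, the GC box, with the letters GGGCGG, and the TATA box, searched as TATAAA. None of these overlaps another motif in the windows shown. No window of Col1a1 is shown. The Col1a2 window is chr6:4505368-4505667, plus strand, and the Col3a1 window chr1:45311288-45311587, plus strand. The RefSeq start of Col1a2 lies downstream of the gene start in GENCODE release M21 given above, so its whole window is inside the GENCODE gene.

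Col1a2: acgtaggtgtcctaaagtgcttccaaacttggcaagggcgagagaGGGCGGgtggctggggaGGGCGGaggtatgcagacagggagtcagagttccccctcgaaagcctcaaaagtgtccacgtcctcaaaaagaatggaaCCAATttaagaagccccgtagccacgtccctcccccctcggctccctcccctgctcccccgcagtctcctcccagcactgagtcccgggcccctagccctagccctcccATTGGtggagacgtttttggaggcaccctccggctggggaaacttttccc

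Col3a1: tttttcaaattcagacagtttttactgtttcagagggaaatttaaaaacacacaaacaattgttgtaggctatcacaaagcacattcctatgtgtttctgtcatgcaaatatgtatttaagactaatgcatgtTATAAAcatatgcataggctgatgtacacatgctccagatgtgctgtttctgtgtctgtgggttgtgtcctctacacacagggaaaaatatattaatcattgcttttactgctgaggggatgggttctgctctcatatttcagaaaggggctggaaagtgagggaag

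The Col1a2 window holds 2 matches of CCAAT and 2 of GGGCGG, and 61% of its bases are G or C. The Col3a1 window holds neither, has 1 match of TATAAA, and 37.7% of its bases are G or C. Among 35 collagen genes with a window, 12 have CCAAT, 22 GGGCGG and 5 TATAAA, taking for each gene the window that the RefSeq table lists first, while 37.9%, 35.9% and 14.2% of 27025 genes with a window of the same length do. A match is a run of letters and no measured binding site.

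The type 5 chains, which start fibrils and set their width, rose by less. Col5a1 was at 18.2 and 24.1 FPKM in vehicle and 77.5 and 83.2 in dox (a rise of 1.89, SE 0.131, limma adjusted p = 3.94e-04). Col5a2, which lies tail to tail with Col3a1 on chromosome 1 with 24615 bases between them, was at 24.3 and 29.4 in vehicle and 84.4 and 80.4 in dox (1.59, limma adjusted p = 3.38e-04). Col5a3 was at 3.77 and 3.35 in vehicle and 7.69 and 7.56 in dox (0.92, limma adjusted p = 0.00168). The vehicle and dox values of the 3 genes did not overlap. Col11a1, a fibrillar chain of cartilage that pairs with type 5 chains in other tissues, was at 1.28 and 1.68 in vehicle and 4.41 and 4.70 in dox, a rise of 1.17 (limma adjusted p = 0.00152). Of the 9 fibrillar genes, these 7 were tested and all 7 rose, with a median of 1.89.

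The remaining fibrillar genes were under the minimum for the test. Col2a1 (chromosome 15, 97975602 to 98004695, minus strand), which encodes the main collagen of cartilage, was at 0.411 and 0.322 FPKM in vehicle and 0.210 and 0.269 in dox, both lower. It was at 9.52 to 11.3 FPKM in the 4 wild-type libraries, the level of Col5a2 in siControl (10.4). Other cartilage genes were low there: of 7 chondrocyte markers, 5 were under 1 FPKM in all 8 libraries, and their sum was 2.91 to 3.20 FPKM in the wild-type libraries and 1.22 to 1.53 in the knock-in ones. Sox9 and Comp were under 1 FPKM throughout, and Acan and Matn3 were at 1 or more in wild-type libraries. Col11a2, the partner of Col11a1 in cartilage, was at 0.123 and 0.176 FPKM in vehicle and 0.1999 and 0.289 in dox, both higher, and at 0.115 to 0.222 in the wild-type libraries.

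**Figure D3:**
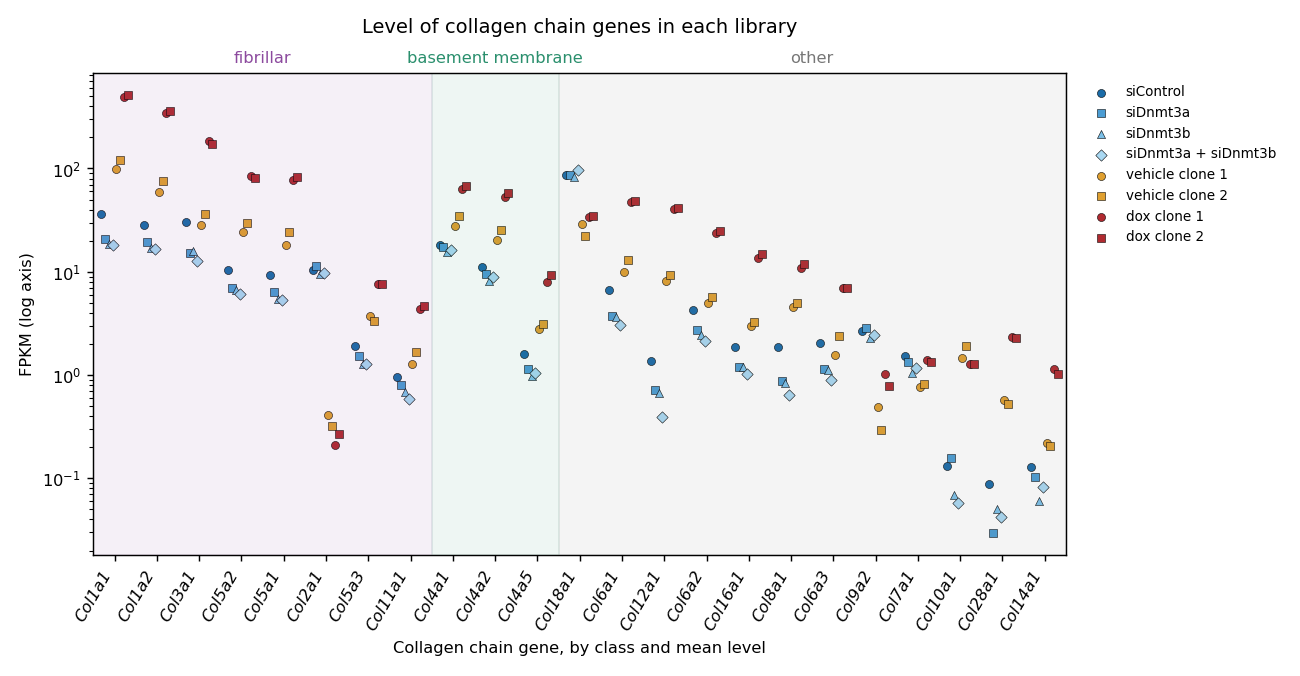
FPKM on a log axis of the 23 collagen genes with a mean of 1 or more over the 8 libraries or in either knock-in group, 1 point per library, ordered by class and mean. Dox points lie highest for Col1a1 (494 and 517), and the wild-type points lie above the knock-in points for Col18a1 and Col2a1.

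Basement membrane chains rose by about 1 on the log2 scale. The sheet is built in most tissues, from the early embryo on, of 2 chains of Col4a1 with 1 of Col4a2. Col4a1 (chromosome 8, 11198423 to 11312826, minus strand) was at 28.03 and 34.4 FPKM in vehicle and 64.0 and 68.1 in dox, and rose by 1.06 (SE 0.109, limma adjusted p = 0.00139). Col4a2 (chromosome 8, 11312805 to 11449287, plus strand) was at 20.2 and 25.5 in vehicle and 53.0 and 58.2 in dox, and rose by 1.25 (SE 0.121, limma adjusted p = 0.00114). Neither gene's groups overlapped. In the wild-type libraries, Col4a1 was at 15.6 to 18.3 FPKM and Col4a2 at 8.22 to 11.3, below vehicle.

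Col4a1 and Col4a2 are read outward from 1 stretch of DNA. Their starts lie 21 bases apart in the annotation (GENCODE release M21), and the genes overlap there, so fragments of the overlap are uncertain: no source used here states the strand setting of the counting. Both promoter windows are shown because the pair changed together and the windows share 78 bases, chr8:11312777-11312854. The Col4a1 window is chr8:11312777-11313076, minus strand, the Col4a2 window chr8:11312555-11312854, plus strand, and the capitals again mark CCAAT and GGGCGG on either strand.

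Col4a1: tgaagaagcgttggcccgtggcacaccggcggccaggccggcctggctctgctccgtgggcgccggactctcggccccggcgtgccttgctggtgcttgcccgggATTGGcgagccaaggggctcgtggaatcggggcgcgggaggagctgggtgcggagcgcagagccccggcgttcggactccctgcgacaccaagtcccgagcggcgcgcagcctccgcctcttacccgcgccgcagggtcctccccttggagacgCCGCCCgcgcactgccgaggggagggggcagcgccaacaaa

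Col4a2: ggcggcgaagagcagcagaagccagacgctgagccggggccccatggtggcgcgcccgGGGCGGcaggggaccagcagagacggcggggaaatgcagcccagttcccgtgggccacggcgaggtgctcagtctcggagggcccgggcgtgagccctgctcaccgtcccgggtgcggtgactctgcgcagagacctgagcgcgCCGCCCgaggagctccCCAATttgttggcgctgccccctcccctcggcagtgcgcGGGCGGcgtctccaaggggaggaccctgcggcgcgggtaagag

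The Col4a1 window has 1 match of CCAAT and 1 of GGGCGG, and the Col4a2 window 1 and 3. G and C make up 74% and 73.7% of them.

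The other type 4 pairs are head to head too, but their levels were far apart or near 0. Col4a5, the chain altered in most families with Alport syndrome, was at 2.77 and 3.09 FPKM in vehicle and 7.94 and 9.22 in dox, a rise of 1.28 (SE 0.112, limma adjusted p = 8.25e-04). Its neighbour Col4a6, whose start lies 1309 bases away on the X chromosome, was at 0.143 and 0.175 in vehicle and 0.253 and 0.318 in dox. Col4a3 and Col4a4, chains of the kidney filter with starts 72 bases apart on chromosome 1, were at or under 0.0329 FPKM in all 8 libraries. So 3 of the 6 type 4 genes were tested and all 3 rose, with a median of 1.25. Markers of extraembryonic endoderm, an early tissue rich in type 4 collagen, were read beside them: 3 of 6 tested rose (Lamb1, Sparc and Dab2) and none fell, while Lama1 and Gata4 did not pass. Their 12 genes summed to 166.2 to 199.8 FPKM in the wild-type libraries, 352.3 and 394.1 in vehicle and 738.4 and 776.1 in dox. A large part of these sums was Sparc alone, at 244 and 267 FPKM in vehicle and 590 and 606 in dox. The sums therefore do not describe the 12 genes evenly. Of the 12, 5 were under 1 FPKM in every library: Sox7, Sox17, Foxa2, Afp and Ttr. The number of the 12 that rose was 4 with a minimum of 0.1 FPKM, 5 with no minimum and 2 with a minimum of 5 FPKM. Over all genes, 17.1% rose in the main test and 8.30% with no minimum.

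The beaded filaments of type 6 collagen, found around most cells of connective tissue, need Col6a1 and Col6a2 chains and a further one, usually Col6a3. Col6a1 (chromosome 10, 76708792 to 76726168, minus strand) was at 10.04 and 13.1 FPKM in vehicle and 47.3 and 48.6 in dox, a rise of 1.98 (SE 0.123, limma adjusted p = 2.89e-04). Col6a2, on the same strand with 85162 bases between, was at 5.02 and 5.76 in vehicle and 23.96 and 25.1 in dox, a rise of 2.00 (SE 0.0959, limma adjusted p = 1.42e-04). Col6a3 was at 1.56 and 2.39 in vehicle and 7.001 and 6.99 in dox, a rise of 1.44 (SE 0.149, limma adjusted p = 0.00146). All 3 had groups that did not overlap. The alternative partners did not share this pattern. Col6a5 was at 0.850 to 0.981 FPKM in the wild-type libraries, 0.107 and 0.0818 in vehicle, and 0.0139 in dox clone 1 and at 0 in dox clone 2. Col6a4 and Col6a6 were under 0.1 FPKM in all 8 libraries.

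Chains that coat or link fibrils were next. Col12a1, which bridges fibrils in tendon and ligament, was at 8.20 and 9.39 FPKM in vehicle and 40.5 and 41.0 in dox, and rose by 2.09 (SE 0.0914, limma adjusted p = 1.42e-04). In the wild-type libraries it was at 0.396 to 1.38. Col16a1, a related chain of fibril surfaces, was at 3.00 and 3.25 in vehicle and 13.6 and 14.9 in dox (1.89, limma adjusted p = 1.85e-04). Col14a1, another chain of this kind, was at 0.221 and 0.208 in vehicle and 1.14 and 1.02 in dox, under the minimum, and it passed where no minimum was set (limma adjusted p = 0.0129). Col9a2, a chain of cartilage fibrils, went the way of Col2a1 between the lines, with 2.29 to 2.88 FPKM in the wild-type libraries and 0.487 and 0.293 in vehicle. In dox it was at 1.04 and 0.786, and it did not pass the test without a minimum (limma adjusted p = 0.0662).

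Of the network-forming chains, Col8a1, found in vessel walls and under corneal endothelium, was at 4.51 and 5.01 FPKM in vehicle and 10.95 and 11.9 in dox, and rose by 1.11 (SE 0.0992, limma adjusted p = 8.87e-04). Its partner Col8a2 had the reverse order between lines, at 0.956 to 1.33 in the wild-type libraries and 0.0383 to 0.119 in the knock-in ones. Col10a1, the collagen of hypertrophic cartilage, was the tested gene that did not pass: it was at 1.46 and 1.92 in vehicle and 1.28 and 1.29 in dox, a difference of -0.23 (SE 0.131, limma adjusted p = 0.214). Both dox values lay below both vehicle values.

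Col18a1 (chromosome 10, 77052178 to 77166548, minus strand), a proteoglycan collagen of basement membranes, changed least among the abundant chains. It was at 28.8 and 22.3 FPKM in vehicle and 33.7 and 35.0 in dox, a difference of 0.42 (SE 0.125, limma adjusted p = 0.0432). That call was lost without dox clone 2 (adjusted p = 0.0761), without vehicle clone 2 (0.25, adjusted p = 0.163) and with a correction for GC content and transcript length (0.25, adjusted p = 0.208). It was also lost with no trend in the fit (adjusted p = 0.0589), with a minimum of 0.1 FPKM (adjusted p = 0.0515) and with no minimum (adjusted p = 0.112). Col7a1, which forms the anchoring fibrils of skin, was at 0.768 and 0.822 in vehicle and 1.396 and 1.33 in dox (0.40, limma adjusted p = 0.0441). Its call was lost without vehicle clone 1 (adjusted p = 0.171), without vehicle clone 2 (adjusted p = 0.105) and with the same correction (0.18, adjusted p = 0.304), and also with a pseudocount of 0.01 (adjusted p = 0.0508). Col28a1, a chain found around peripheral nerves, was at 0.571 and 0.529 in vehicle and 2.31 and 2.28 in dox (1.09, limma adjusted p = 0.00152). Of the 28 chains outside the fibrillar and type 4 classes, 10 were tested and 9 rose, with a median of 1.28.

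The remaining 20 genes had no library group with a mean of 1 FPKM, apart from wild-type libraries, and none exceeded 1.74 FPKM. Of the 4 transmembrane chains, Col17a1, Col23a1 and Col25a1 were at or under 0.313 FPKM in every library. The other, Col13a1, was at 1.31 to 1.74 in the wild-type libraries, 0.119 and 0.0617 in vehicle and 0.654 and 0.730 in dox, and it passed where no minimum was set (limma adjusted p = 0.0139). Col9a3 and Col27a1 lay between 0.367 and 1.06 FPKM in all 8 libraries, and Col15a1, Col19a1, Col9a1 and Col24a1 were at or under 0.221. Col20a1 and Col22a1 were at or under 0.376 and 0.433. Among these low genes, Col6a5, Col8a2 and Col13a1 were singled out after their values were seen.

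Partner chains were compared within each library, since FPKM is scaled to length. The ratio of Col1a1 to Col1a2 was 1.09 to 1.27 in the wild-type libraries, 1.65 and 1.59 in vehicle and 1.44 and 1.45 in dox, so it was highest in vehicle, and the 3 sets did not overlap. The ratio of Col4a1 to Col4a2 was 1.63 to 1.89 in the wild-type libraries, 1.39 and 1.35 in vehicle and 1.21 and 1.17 in dox. The ratio of Col6a1 to Col6a2 was 1.36 to 1.57, 2.00 and 2.27, and 1.98 and 1.94 in the same order. The ratios were not tested and are given as descriptions. None of the Col1a1 to Col1a2 values reached the 2 to 1 of the protein trimer.

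**Figure D4:**
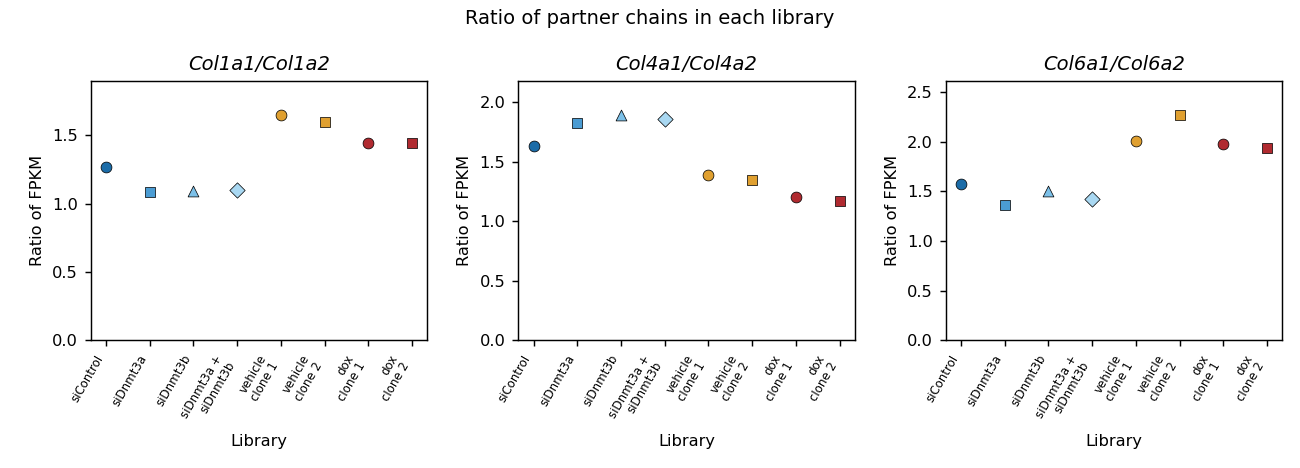
Ratio of FPKM of partner chains in each of the 8 libraries (x axis), from 0 on a linear y axis. Col1a1 to Col1a2 is highest in the vehicle libraries (1.65 and 1.59), and Col4a1 to Col4a2 is lowest in dox (1.21 and 1.17).

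Genes that make, modify and bind collagen were read from lists that hold no collagen chain. Of 18 tested genes of hydroxylation, folding and glycosylation, 17 rose, none fell and Mia3, an exit receptor for collagen cargo, did not pass (0.26, limma adjusted p = 0.0757). The median was 1.02. P4ha2, a subunit of prolyl hydroxylase, which stabilises the triple helix, was at 12.5 and 13.1 FPKM in vehicle and 70.4 and 73.4 in dox (2.40). Serpinh1, the collagen chaperone Hsp47, was at 79.7 and 83.1 in vehicle and 254.2 and 256.5 in dox (1.64), and Fkbp10, a folding enzyme, rose by 1.81. P4ha3, Creb3l1, a transcription factor of secretory cells that acts on collagen genes, and Leprel2, a prolyl 3-hydroxylase now called P3h3, rose by 1.48, 1.48 and 1.51.

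Of 11 tested genes of propeptide cleavage and crosslinking, 8 rose, none fell and 3 did not pass, Loxl3 and Pcolce2 among them, with a median of 0.96. Lox, the lysyl oxidase that crosslinks fibrils, was at 52.9 and 60.3 FPKM in vehicle and 201.5 and 215.3 in dox (1.86), against 1.49 to 3.28 in the wild-type libraries. Bmp1, the protease that removes the C-terminal propeptide, rose by 1.58, Loxl2 by 1.36, Loxl1 by 1.34, Adamts2, the N-propeptide protease, by 1.31 and Pcolce, which enhances Bmp1, by 0.96. Adamts2, with a vehicle mean of 0.901 FPKM, passed the filter only through its dox values. With the minimum set on vehicle, 7 genes of this list rose. All 4 tested collagen receptors rose: Mrc2, an uptake receptor, by 1.95, the receptor kinase Ddr2 by 1.03, the integrin chain Itgb1 by 0.34 and Ddr1 by 0.32, and without vehicle clone 1 only 2 rose. Of 4 degrading enzymes, Mmp2 (1.85), Mmp14 (0.99) and Ctsk (0.89) rose, and Mmp13 was at 3.19 and 4.73 FPKM in vehicle and 5.65 and 6.35 in dox (0.51, limma adjusted p = 0.0531).

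The cell type lists were read in the same comparison. Of the 14 fibroblast markers that rose, Dcn, Lum, Fbln2, Postn, Fbn1 and Prrx1 had the largest differences (2.98, 1.99, 1.66, 1.63, 1.34 and 1.34), and Mfap5 did not pass (0.30, limma adjusted p = 0.104). Lum, with a vehicle mean of 0.815 FPKM, passed the filter only through its dox values. Of 10 pluripotency genes, Dppa5a, Klf4 and Esrrb rose (0.83, 0.79 and 0.25), Utf1 fell by 0.48, and 6 did not pass, Zfp42 (-0.30) and Nanog (0.22) among them. Leaving out any 1 library gave 2 that rose, and 2 fell without dox clone 1. Of 8 macrophage genes, Itgam, Emr1 and Cd14 rose by 0.57, 0.52 and 0.48 and 5 did not pass, Fcgr1 (-0.57) and Csf1r (0.51) among them. Itgam, with a vehicle mean of 0.975 FPKM, passed the filter only through its dox values, and with the minimum set on vehicle 2 macrophage genes rose. The macrophage genes summed to 120.4 to 162.3 FPKM in the wild-type libraries, 186.6 and 213.5 in vehicle and 238.6 and 315.8 in dox, and the count of those that rose was 6 without dox clone 1, 5 without vehicle clone 2 and 2 without dox clone 2 or vehicle clone 1, where 1 gene fell in each case.

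Sites for miR-203 in collagen transcripts were listed because the dox clones are labelled as induced for the microRNA. A microRNA lowers transcripts whose 3' untranslated region pairs with its seed, bases 2 to 8, shown in capitals in the mature strand below (RefSeq, GRCm38.p6). Below it stand the matches, in capitals within 22 bases of the transcript (GENCODE release M21), in 5 of the tested collagen genes. Of all genes with a mean of 1 FPKM or more in the knock-in libraries, 1940 of 11448 (16.95%) had a match. The list below is not complete, so its count of genes is not set against that share.

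miR-203-3p: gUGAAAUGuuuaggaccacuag

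Col4a1, first match: catcctggcaggCATTTCAcac

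Col4a1, second match: tgcttgaagtgaCATTTCActa

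Col6a1: ggcatggagacaCATTTCAaca

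Col8a1: aaacaactttgcCATTTCAtga

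Col18a1: gtgctatgatgcCATTTCAaag

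Col10a1: caccataaatctCATTTCAaaa

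The matches lie on chromosome 8 at 11198763 to 11198769 and 11198645 to 11198651 (Col4a1), chromosome 10 at 76709512 to 76709518 (Col6a1) and at 77052214 to 77052220 (Col18a1), chromosome 16 at 57626012 to 57626018 (Col8a1) and chromosome 10 at 34396413 to 34396419 (Col10a1), all GRCm38. Of these genes, Col4a1, Col6a1, Col8a1 and Col18a1 were higher in dox by 1.06, 1.98, 1.11 and 0.42, as given above, and Col10a1 differed by -0.23. Dox had been withdrawn for 2 weeks when the RNA was taken.

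The targeted genes were read first in the siRNA libraries. Dnmt3a was at 75.1 FPKM in siControl, 59.8 with its own siRNA, 77.6 with siDnmt3b and 69.5 with both, and Dnmt3b was at 146.3, 128.3 with its own siRNA, 134.8 with siDnmt3a and 135.01 with both. The single siRNA gave the lowest level of its own target among the 4 libraries, though most of the transcript was still measured after 1 week.

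In the siRNA series, 1 library per group gives no replicate check, and the 3 comparisons share siControl, so any error of that 1 library is in each comparison. Most collagen chains were lower than in siControl, fibrillar chains by more than type 4 chains by median. Of the collagen genes with a mean of 1 FPKM or more over the 2 libraries, 17 of 20 were lower in the siDnmt3a library (51.7% of all genes), 19 of 21 in the siDnmt3b library (51.3%) and 17 of 20 in the double siRNA library (48.4%). Their medians were -0.43, -0.41 and -0.43 on the log2 scale, beside -0.00, -0.00 and 0.01 over all genes. None was lower by 2-fold in FPKM + 1 in the single siRNA libraries, where 0.0850% (siDnmt3a) and 0.0597% (siDnmt3b) of all genes were. In the double siRNA library 1 was, Col3a1, against 0.136% of all genes. With a pseudocount of 0.1 in place of 1, these counts became 1, 1 and 4. The shares of all genes were not counted at that pseudocount, so those given above do not apply to these counts.

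**Figure D5:**
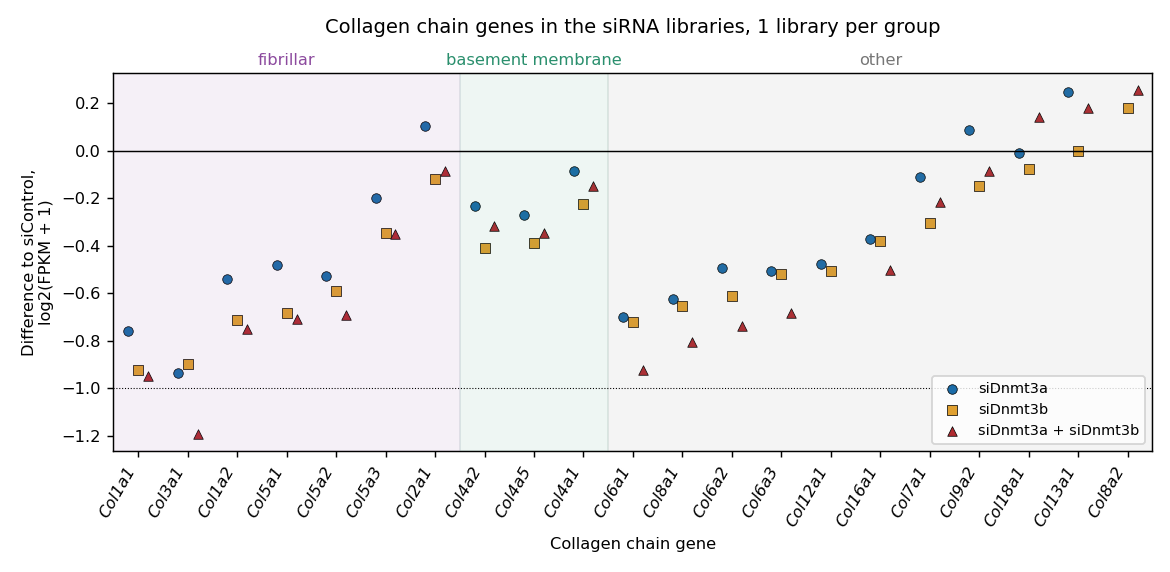
Difference to siControl on the log2(FPKM + 1) scale (y axis) of collagen genes with a mean of 1 FPKM or more over the 2 libraries, 1 point per siRNA library. The dotted line marks 2-fold lower, which Col3a1 passes in the double siRNA library (-1.19), and Col2a1, Col18a1, Col9a2, Col13a1 and Col8a2 lie near or above 0.

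Fibrillar medians were -0.53 with siDnmt3a, -0.68 with siDnmt3b and -0.71 with the double siRNA, and in the same order type 4 medians were -0.23, -0.39 and -0.32, and medians of the other types -0.43, -0.38 and -0.36. Col3a1 was at 30.3 FPKM in siControl against 15.4, 15.8 and 12.7, and Col1a1 at 36.1 against 20.96, 18.6 and 18.2. Col6a1 was at 6.68 against 3.73, 3.66 and 3.05. The siControl library was thus the highest of the 4 for these genes, and the 3 siRNA libraries lay close together. Col12a1, near 1 FPKM, was at 1.38 in siControl and 0.711, 0.676 and 0.396 with siRNA, so the double siRNA library held 28.7% of its siControl level.

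A second set of chains did not share the drop. In the same order of libraries, Col2a1 was at 10.4 FPKM in siControl against 11.3, 9.52 and 9.76, and Col18a1 at 87.5 against 86.8, 82.8 and 96.6. Col8a2 was at 0.956 against 1.00, 1.22 and 1.33, and Col13a1 at 1.31 against 1.74, 1.31 and 1.62. Col9a2 was at 2.65 against 2.88, 2.29 and 2.45. The fibroblast markers were lower in each siRNA library, 14 of 14, 13 of 13 and 14 of 14, with medians of -0.57, -0.53 and -0.63, and their part in the fibrillar values was not tested. The hydroxylation and folding genes were not uniformly lower, with medians of 0.04, -0.07 and 0.06, while those of cleavage and crosslinking were at -0.19, -0.30 and -0.26.

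Wild-type and vehicle cells were set side by side without a test, because cell line, genotype, siRNA transfection and vehicle cannot be told apart. Of 20 collagen genes with a mean of 1 FPKM or more over these 6 libraries, 13 were lower in all 4 wild-type libraries than in both vehicle libraries (38.1% of all genes), 5 were higher (38.0% of all genes) and Col3a1 and Col6a3 overlapped. The 5 higher genes were Col2a1, Col9a2, Col18a1, Col7a1 and Col13a1. Of these, Col2a1, Col9a2, Col18a1 and Col13a1 also differed from siControl by 0.25 or less on the log2 scale in each siRNA library. Col4a1 differed from siControl by as little, but was lower in wild-type than in vehicle libraries. The share of all genes within 0.25 was not counted. Over all genes, the SD of this difference was 0.159 with siDnmt3a, 0.134 with siDnmt3b and 0.246 with the double siRNA. A difference of this size is therefore not particular to these chains. The 13 lower genes were Col1a1, Col1a2, Col5a1, Col5a2, Col5a3, Col12a1, Col16a1, Col6a1, Col6a2, Col8a1, Col4a1, Col4a2 and Col4a5. Each was also lower in every siRNA library than in siControl where tested, and higher in dox than in vehicle. The sum of the fibroblast markers was likewise lower in all wild-type than in vehicle libraries. It was highest of the 4 wild-type libraries in siControl (292.7 FPKM), and highest of all 8 in dox clone 2 (1001). This sum does not describe its markers evenly, and its part in these differences was not tested.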

How the data were processed

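The values are FPKM, which the authors deposited as 1 table of 23284 genes with 1 column per library, all 8 of them used. Cuffnorm and Cufflinks 2.2.1 stand in the submitters' processing notes beside TopHat2 2.0.10, SAMtools 0.1.19, Bowtie 1.0.0 and FastQC, with mm10 and GRCm38 as builds. No source used here states the annotation release, strand setting or library scaling. FPKM are shares of a library, and near-identical genes divide fragments by estimation.

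Groups came from the labels. The test of dox against vehicle used R 4.3.3 and limma 3.58.1 (eBayes with trend after lmFit, two-sided, threshold 0.05 after Benjamini-Hochberg adjustment over all genes tested) on log2(FPKM + 1), which understates the change of low genes. The labels number the clones without giving their origin, so p-values reflect the spread of these 4 libraries alone. The fit was checked on simulated data. The siRNA libraries entered no test. Alternatives covered pseudocount, filter, scaling, trend, GC content with length, the replicate block and each library left out.

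Members and lists were chosen with earlier results of these data known. Values are given for every collagen gene with a mean of 1 FPKM or more over the 8 libraries or in a knock-in group, and for up to 6 called and 2 uncalled genes per list, by size of difference. All 104 list entries were matched, 7 through another symbol. No source used here states total fragment counts. Positions, GC content and transcripts came from GENCODE release M21 (GRCm38), promoters and the microRNA from RefSeq. One microRNA match is not reported here.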

Additional observations from a re-analysis of the deposited data

How the results depend on the processing

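Of 311 values of the 20 tested collagen genes under other settings, none changed direction and 12 lost the call, all of them of Col18a1 or Col7a1. The number of collagen genes that rose stayed between 15 and 21 under every alternative run, was 17 to 18 without 1 of the 4 libraries, and none fell. With the clone number as a replicate block it was 19, and correcting for GC content and length gave 17, with or without the block. The block gave 5 pluripotency genes that rose and 3 that fell, in place of 3 and 1, and 6 macrophage genes that rose and 1 that fell, in place of 3 and 0. With the GC content and length correction alone, 1 macrophage gene fell. The labels do not state that equal clone numbers mean the same clone; the clone differences in dox and vehicle correlated at r = 0.441 across 11927 genes, which are not independent.

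Class medians moved with which low genes were let in. The fibrillar median was 1.59 with a minimum of 0.1 FPKM and with no minimum, and 1.70 to 2.08 with 1 library left out. The type 4 median was 0.61 with no minimum, 1.07 with the GC content and length correction, also with the block, and 1.09 to 1.34 with 1 library left out. The median of the other types was 1.84 and 1.95 with pseudocounts of 0.1 and 0.01, 0.44 with a minimum of 0.1 FPKM, 0.15 with none, 1.93 with 5, 1.67 with the minimum set on vehicle, and 1.17 to 1.44 with 1 library left out. The cleavage and crosslinking genes that rose numbered 5 with a minimum of 5 FPKM, which tests fewer genes, and the receptors that rose 2 to 3 with 1 library left out.

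The siRNA medians over collagen genes were -0.11 (siDnmt3a), -0.22 (siDnmt3b) and -0.22 (double siRNA) with a minimum of 0.1 FPKM. For siDnmt3b and the double siRNA they were -0.65 and -0.67 with a pseudocount of 0.1, and -0.64 and -0.69 with a minimum of 5 FPKM. Collagen genes lower by 2-fold numbered 1, 1 and 4 with a pseudocount of 0.1, where the shares of all genes were not counted. For the other types in the double siRNA library, a minimum of 5 FPKM left Col18a1 alone, at 0.14, so that value is no median of several genes. A change of minimum alters only which genes enter these medians. The cause of the other shifts was not tested. No chain ratio depends on library scaling.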
